A study of Saccharomyces cerevisiae with 4 samples.

Results

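The 5 genes AAD3, AAD4, AAD6, AAD10 and AAD14 of Saccharomyces cerevisiae belong to the aryl-alcohol dehydrogenase family, whose copies lie close to chromosome ends. They were found by their symbols in the probe annotation, and each was measured by its own probe set, so that they make up 5 of the 5343 genes tested. The family was chosen by the direction of its members in nps1-13 over WT, the contrast described here. The changes of the members are therefore given as a description, with errors and without a test. The arrays compared nps1-13 cells with WT cells, each after 4 h at 28°C in YPEG, a rich medium with ethanol and glycerol as carbon sources, into which cells pre-grown in glucose medium (YPD) had been moved. The nps1-13 strain, BYI-3, is listed as a MATa/α diploid with both copies of NPS1 replaced by the temperature-sensitive allele nps1-13 and both copies of MET15 deleted (met15Δ0). The WT strain, BY4743, is listed as a MATa/α diploid with 1 intact and 1 deleted copy each of MET15 (met15Δ0) and LYS2 (lys2Δ0). Both strains are listed with his3Δ1, leu2Δ0 and ura3Δ0 in both copies. Each strain had 2 one-colour Affymetrix Yeast Genome 2.0 arrays, and the labels do not say whether these came from separate cultures, and the spread between arrays of a strain may be only technical.

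Nps1, also called Sth1, is the ATPase of RSC, a chromatin-remodelling complex that moves and evicts nucleosomes at promoters. The AAD proteins are aldo-keto reductases, named for their likeness to an enzyme of the white-rot fungus Phanerochaete chrysosporium that reduces aromatic aldehydes to alcohols with NADPH. The yeast genes are near-copies of one another and most have no settled function, although AAD4 and AAD6 are known to respond to oxidants through the transcription factor Yap1. Genes next to yeast telomeres are subject to silencing by the Sir proteins and by histone deacetylases, and many of them belong to families copied between chromosome ends.

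The signal of a probe set is its brightness on a linear scale, as computed by the Affymetrix software GCOS. The median signal of an array was 2158 and 2024 in nps1-13, against 3051 and 2770 in WT, and 167 to 213 of the 5558 probe sets of an array had a signal under 100. On log2 signals of the 5343 genes tested, replicate arrays correlated with r = 0.995 in nps1-13 and 0.996 in WT. Arrays of different strains correlated with r between 0.916 and 0.927. The median gene stood at a log2 fold change of -0.41 on the deposited scale. When every array is centred on its own median log2 signal (the centred scale), this adds 0.48 to every log2 fold change and places the median gene at 0.07, and quantile normalization places it at -0.01. Each change below is given on the deposited scale first and then relative to this shift. STH1 (NPS1) itself had signals of 7419 and 6524 in nps1-13 and 5016 and 4372 in WT; the allele is not a deletion, so this level does not check the labels. MET17 (MET15) had signals of 17.7 and 16 in nps1-13 and 4039 and 3883 in WT. LEU2 had 4446 and 4225 in nps1-13 and 14.0 and 37.1 in WT, although leu2Δ0 is listed for both strains. The mating pheromone gene MF(ALPHA)1 had 6109 and 6228 in nps1-13 and 45.0 and 41.6 in WT, and the probe set named HMRA1 had 0.9 and 6.1 in nps1-13 and 1599 and 1896 in WT, although both strains are listed as MATa/α. HMRA1 is the silent copy of the mating-type gene MATa1, whose sequence it shares, so that this signal cannot be assigned to either locus. The strains thus differed in marker and cell-type genes besides the RSC allele, and the part of each in the values below cannot be told apart. In RNA from a whole culture, fewer cells that express a gene and less RNA per cell cannot be told apart either. The HMRA1 locus lies on the right arm of chromosome III with 9 annotated genes between it and AAD3.

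The members moved apart in nps1-13. AAD4 was higher than in WT, AAD3 was lower, AAD10 lay above the median gene, and AAD6 and AAD14 lay nearer to it than the other members. On the deposited scale 2 members were above 0 and 3 below. On the centred scale 3 were above and 2 below, since AAD14 changed side, and after quantile normalization 4 were above and 1 below, since AAD6 changed side as well. Between AAD4 and AAD3, at the 2 ends, the log2 fold changes spanned 4.56, and 4.64 after quantile normalization.

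AAD4 (YDL243C) is the sixth annotated gene from the left end of chromosome IV. Its signals were 2309 and 1865 in nps1-13, against 406 and 364 in WT. Both nps1-13 arrays lay far above both WT arrays, with means of 2087 ± 314 in nps1-13 and 385 ± 29.6 in WT (SD, n = 2 each). The ratio of the means was 5.42, and the log2 fold change was 2.43 ± 0.13 (SE of the fit) as deposited, 2.91 ± 0.087 on the centred scale and 2.92 after quantile normalization. AAD4 ranked 21 from the highest of the 5343 genes.

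AAD10 (YJR155W), the sixth gene from the right end of chromosome X, had signals of 2440 and 2605 in nps1-13 and 2301 and 1936 in WT. The lower nps1-13 array lay just above the higher WT array, and the ratio of the means was 1.19. The log2 fold change of AAD10 was 0.26 ± 0.13 on the deposited scale, a value above that of 90.2% of genes, and 0.73 ± 0.071 on the centred scale and 0.75 after quantile normalization. AAD10 therefore stood above WT on each of these scales.

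AAD6 (YFL056C) is the eleventh gene from the left end of chromosome VI and is annotated as a pseudogene in the RefSeq R64 table, which joins it to the adjacent reading frame YFL057C. Its signals were 808 and 832 in nps1-13 and 1271 and 1059 in WT. The log2 fold change of AAD6 was -0.50 ± 0.13 on the deposited scale, -0.025 ± 0.081 on the centred scale, and 0.16 after quantile normalization, where the direction turned. Of all genes, 43.6% had a lower log2 fold change. AAD14 (YNL331C), the seventh gene from the left end of chromosome XIV, had 523 and 483 in nps1-13 and 722 and 650 in WT. That of AAD14 was -0.45 ± 0.14 on the deposited scale, and the direction turned on the centred scale, at 0.028 ± 0.084, and after quantile normalization, at 0.20. For AAD14, 47.4% of genes were lower. On the deposited scale both genes thus lay below WT by about as much as the median gene did, and after quantile normalization both lay above it.

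AAD3 (YCR107W) is the second gene from the right end of chromosome III. Its signals were 46.9 and 29.6 in nps1-13, against 158 and 168 in WT. Both nps1-13 values were under 100, where the relative error is larger, and they differed from each other by 0.66 on the log2 scale, the widest gap between replicates among the 5 genes. The means were 38.2 ± 12.2 in nps1-13 and 163 ± 6.72 in WT (SD, n = 2 each), with a ratio of 0.234. The log2 fold change was -2.13 ± 0.26 as deposited, -1.65 ± 0.24 on the centred scale and -1.71 after quantile normalization, and AAD3 ranked 56 from the lowest of all genes. Adding 32 to every signal, which draws dim probe sets toward 0, gave -1.48 for AAD3 and 2.34 for AAD4.

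**Figure D1:**
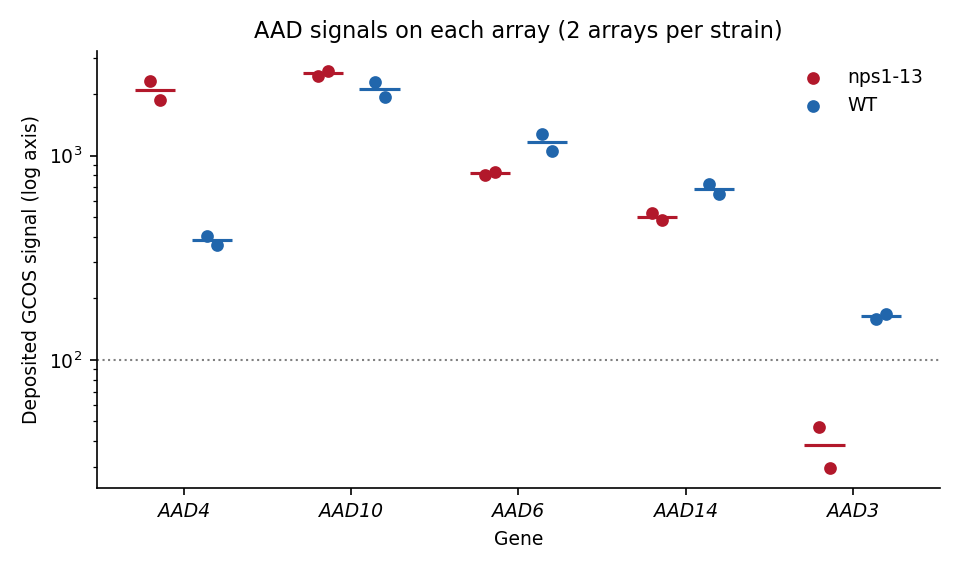
Deposited signal (log axis) of each AAD gene on the 2 nps1-13 arrays (red, left) and the 2 WT arrays (blue, right); horizontal bars are means and the dotted line marks a signal of 100. AAD4 averages 2087 in nps1-13 and 385 in WT, AAD3 is under 100 in nps1-13 alone, and the other genes lie closer together; heights of different genes are not comparable, since each probe set has its own response.

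**Figure D2:**
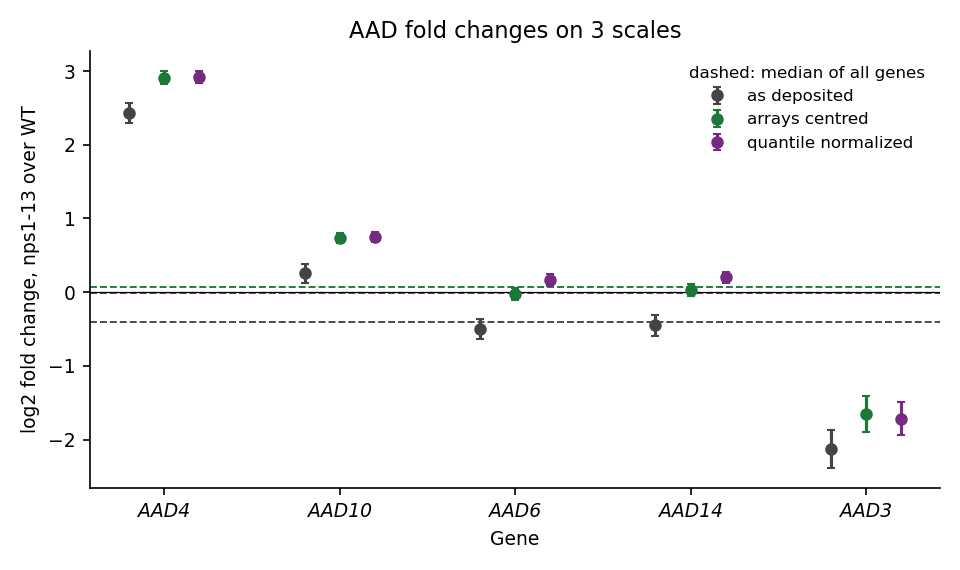
Log2 fold change of nps1-13 over WT (vertical axis) for each AAD gene on the deposited (grey), centred (green) and quantile-normalized (purple) scales, with bars of 1 SE of the fit from 2 arrays per strain; dashed lines are the medians of all 5343 genes on each scale. AAD4 and AAD10 lie above 0 and AAD3 below it on all 3 scales, while AAD6 and AAD14 cross 0. These 2 lie near the median on the deposited and centred scales, and above it after quantile normalization (0.16 and 0.20, median -0.01).

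On the deposited signals the arrays of the strains did not overlap for any of the 5 genes, and this held for 86.1% of all genes. On the centred scale, 4 of the 5 did not overlap, against 89.3% of all genes. AAD6 was the exception, with centred signals of 923 and 1013 in nps1-13 and 1027 and 942 in WT. AAD14 was separated on this scale by a narrow gap, with 597 and 588 in nps1-13 and 584 and 579 in WT. Judged by a 2-fold ratio of mean signals, AAD4 was the 1 member above 2, where 1.98% of genes lay as deposited and 4.96% on the centred scale. AAD3 was the 1 member below 0.5, where 16.7% of genes lay as deposited and 5% on the centred scale. Since the family was chosen on this contrast, these shares are given beside the counts and nothing is read from them.

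Differences between members within the same arrays do not depend on an offset shared by all genes of an array. The log2 fold change of AAD4 exceeded that of AAD3 by 4.56 ± 0.21 (SE from the differences on each array, n = 2 per strain), that of AAD6 by 2.93 ± 0.18, that of AAD14 by 2.88 ± 0.097 and that of AAD10 by 2.18 ± 0.21. AAD10 exceeded AAD6 by 0.76 ± 0.027 and AAD14 by 0.71 ± 0.12. After quantile normalization, which does not shift all genes alike, AAD10 exceeded them by 0.59 and 0.55. These SEs therefore do not cover the dependence on the scale. AAD6 and AAD14 were the nearest pair, at a difference of 0.05 ± 0.096 (AAD14 minus AAD6), which was smaller than its error. AAD3 was nearest to AAD6, by 1.63 ± 0.39. As AAD3 is dim in nps1-13, its distances depended on the offset. With 32 added to the signal AAD6 exceeded AAD3 by 0.999, AAD14 exceeded it by 1.06, AAD10 by 1.74 and AAD4 by 3.82. The order AAD4, AAD10, AAD14 and AAD6 together, then AAD3 was the same after quantile normalization, with AAD14 and AAD6 not separated. Centring cannot change this order, since it adds the same value to every log2 fold change.

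The gene order at the chromosome ends was set beside these changes. From AAD4 toward the telomere the annotation lists THI13, HXT15, SOR2, MPH2 and COS7, and from AAD10 it lists THI11, HXT16, SOR1, MPH3 and COS5, so that all 5 positions hold genes with the same family name. From AAD6 the list is THI5, SNZ3, SNO3, DDI3 and COS4, and from AAD14 it is THI12, SNZ2, SNO2, DDI2 and COS1, again with the same family name at 5 of 5 positions. AAD4 and AAD6 share the family name at 2 of 5 positions, the THI and COS genes. AAD3 has a single annotated gene beyond it, YCR108C, and none of these families next to it. The 2 members within the THI, HXT and SOR arrangement thus had higher log2 fold changes than the 2 within the THI, SNZ and SNO arrangement on the deposited, centred and quantile-normalized scales. With 1 or 2 members per arrangement, and members chosen on this contrast, this is a description. Centring leaves the order of the members unchanged by construction. Within the first arrangement AAD4 and AAD10 still differed by 2.18 ± 0.21. Of the genes in these arrangements only MPH2, which encodes a maltose-permease-like protein, was measured under its name. It had signals of 54.8 and 58.1 in nps1-13, both under 100, and 158 and 136 in WT (log2 fold change -1.38 as deposited and -0.91 centred, limma adjusted p = 2.8e-08 and 0.0015). MPH2 is annotated 4 genes from AAD4, and the change of its probe set was in the opposite direction. Whether this probe set also reads MPH3, which was not measured under its own name, was not tested.

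The 46 annotated genes within 5 positions of a member on either side included 24 measured ones. By limma on the deposited scale, 6 of these 24 were higher in nps1-13 and 13 lower, where 9.41% of all genes tested were higher and 64.3% lower. On the centred scale 9 were higher and 8 lower, against 42.7% and 34.6% of all genes, and after quantile normalization 10 were higher and 9 lower, against 36.4% and 37.7%. The median change of the 24 was -0.54 as deposited and -0.06 on the centred scale, beside -0.41 and 0.07 over all genes. Without nps1-13 replicate 1 the count of higher neighbours was 3. The 299 measured genes among the 15 nearest to a chromosome end had a median of -0.40 as deposited and 0.07 on the centred scale, close to that of all genes. Of these 299, 39 were higher and 175 lower as deposited (21 higher without nps1-13 replicate 1), and 129 were higher and 101 lower on the centred scale.

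Next to AAD3, RDS1, a zinc-cluster transcription factor gene involved in cycloheximide resistance, had 97.6 and 78.8 in nps1-13 and 338 and 318 in WT. RDS1 stood at -1.90 as deposited and -1.42 on the centred scale (limma adjusted p = 1.4e-21 and 1.5e-05). ADH7, an NADPH-dependent alcohol dehydrogenase, had 29.5 and 32.3 in nps1-13 and 95.1 and 65.9 in WT, all under 100, at -1.36 as deposited and -0.88 centred. The terminal gene YCR108C stood at -0.93 as deposited and did not pass the test on the centred scale (-0.45, limma adjusted p = 0.060). The genes on both sides of AAD3, RDS1 and YCR108C, thus had lower deposited signals in nps1-13. On the deposited scale 64.3% of all genes were lower, so nothing is read from this. In nps1-13 the signals of RDS1 and those of YCR108C (58.4 and 66) were under 100. Farther in, YCR102C did not pass on the deposited scale at -0.25, and its direction turned on the centred scale (0.22) and after quantile normalization (0.41). YCR101C, dim on all 4 arrays, stood at 0.42 as deposited without passing and at 0.89 on the centred scale.

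On the centromere side of AAD4, YDL241W, a gene without a settled function, had 885 and 724 in nps1-13 and 320 and 310 in WT (log2 fold change 1.35 as deposited and 1.82 centred, limma adjusted p = 4.3e-19 and 2.4e-07). The next measured genes were lower. LRG1, a GTPase-activating protein for Rho1, stood at -1.05 as deposited and -0.57 centred, and GUD1, guanine deaminase, at -1.03 and -0.56. ADY3, a spore-wall gene, was lower as deposited (-0.64), did not pass on the centred scale (-0.17) and stood at 0.018 after quantile normalization. AAD4 and YDL241W were thus the higher genes in a stretch whose other 4 measured genes were lower on the deposited scale. On that scale 64.3% of all genes were lower and 9.41% higher, so nothing is read from the count of lower genes.

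Beside AAD6 the largest change among all 24 neighbours was that of DAK2, a dihydroxyacetone kinase, with 1310 and 1353 in nps1-13 and 72.7 and 80.5 in WT, at a log2 fold change of 4.12 as deposited and 4.60 centred (limma adjusted p = 1.2e-135 and 5.1e-09). AGP3, an amino acid permease gene that adjoins AAD6, was higher at 0.36 as deposited and 0.84 centred, although the deposited call was lost without WT replicate 2 (0.23), without nps1-13 replicate 1 (0.31) or without nps1-13 replicate 2 (0.42). ZNF1, a zinc-cluster regulator of growth on nonfermentable carbon, was lower at -0.37 as deposited, and its direction turned on the centred scale (0.11) and after quantile normalization (0.23), without passing. Its deposited call was lost without WT replicate 1 (-0.26) or nps1-13 replicate 2 (-0.22). YFL051C, with all signals at 20.2 or less, did not pass.

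Beside AAD10, PGU1, an endo-polygalacturonase, was higher at 0.59 as deposited and 1.06 centred, and its deposited call was lost without nps1-13 replicate 1 (0.50). DAL5, an allantoate permease, was lower at -0.69 and -0.21, and did not pass after quantile normalization (-0.02). The dim YJR151W-A had 60.8 and 43.0 in nps1-13 and 14.0 and 15.3 in WT, at 1.80 as deposited, 2.28 centred and 0.84 with 32 added to the signal. YJR154W, which adjoins AAD10, was lower at -0.62 as deposited and did not pass on the centred scale (-0.15), and its deposited call was lost without WT replicate 1 (-0.31) or nps1-13 replicate 1 (-0.38). DAN4, a cell-wall mannoprotein, did not pass at -0.17 as deposited and turned direction on the centred scale (0.31) and after quantile normalization (0.34), where it was higher.

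Beside AAD14, RPD3, a histone deacetylase that is itself a regulator of subtelomeric genes, was lower at -0.46 as deposited (4421 and 4007 in nps1-13, 5982 and 5577 in WT), turned to 0.020 on the centred scale without passing, and stood at -0.13 after quantile normalization; without nps1-13 replicate 2 it missed the threshold, at -0.39. The peroxisomal ATPase gene PEX6 stood at -0.06 as deposited without passing and turned to 0.42 on the centred scale and 0.41 after quantile normalization, where it was higher. MDJ2, a mitochondrial co-chaperone, was higher at 0.41 and 0.89 centred, and its deposited call was lost without WT replicate 2 (0.35), nps1-13 replicate 1 (0.32) or nps1-13 replicate 2 (0.50). EGT2, a cell-wall protein of early G1, was lower at -0.71 and -0.23, and PFA3, a vacuolar palmitoyltransferase, at -0.83 and -0.35.

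**Figure D3:**
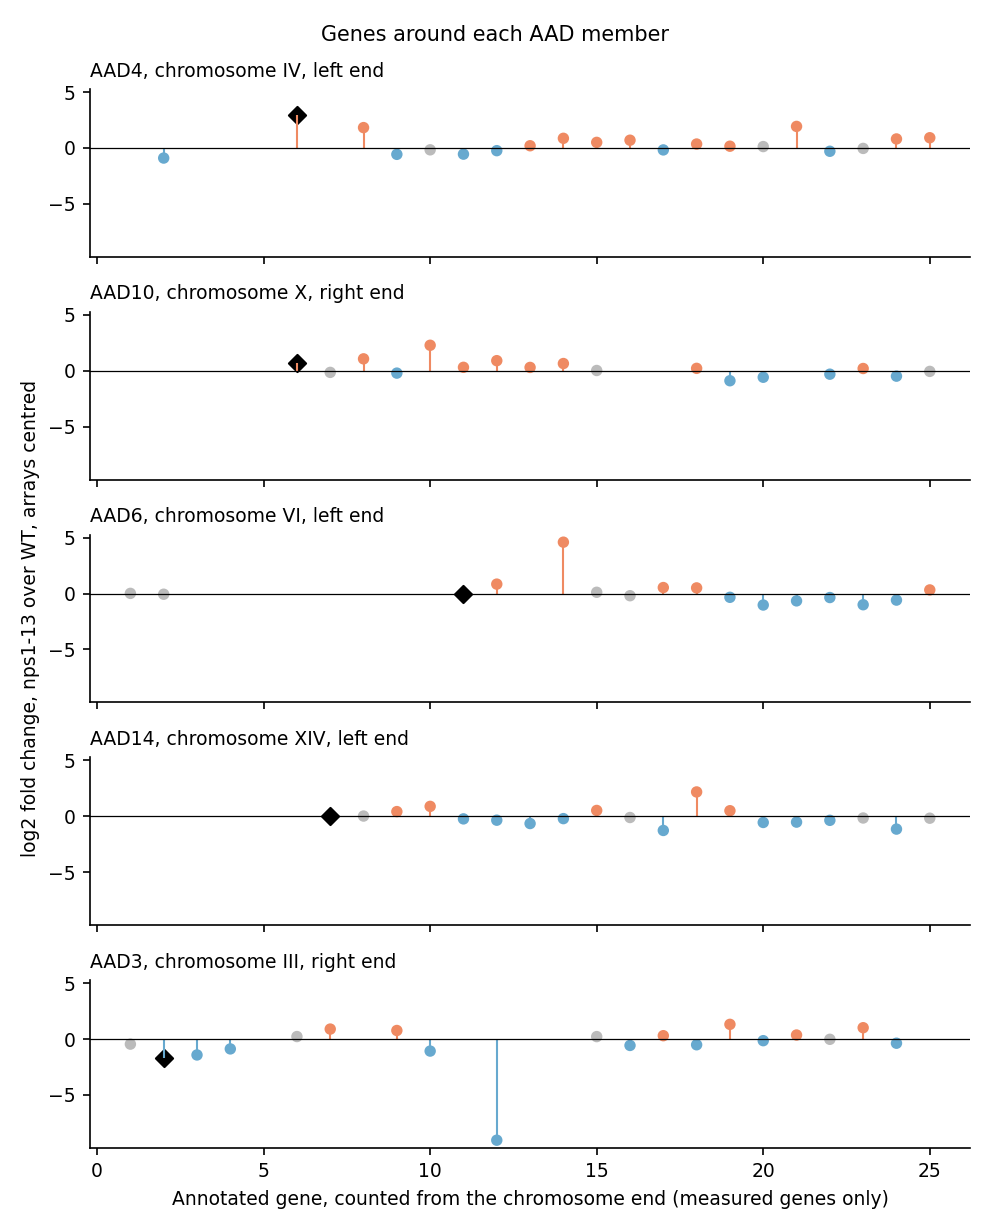
Log2 fold change of nps1-13 over WT on the centred scale (vertical axis) for measured genes in their annotated order from the chromosome end that carries each AAD gene (horizontal axis); black diamonds are the AAD genes, and orange, blue and grey points are genes higher, lower and not past the limma threshold. AAD4 at 2.91 and AAD3 at -1.65 stand out from 0, DAK2 at 4.60 stands near AAD6, and the point at -9.06 on chromosome III is the probe set named HMRA1, drawn at that locus although MATa1 shares its sequence.

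Among other genes of the family, YPL088W, a putative aryl-alcohol dehydrogenase gene outside the subtelomeres, had 1600 and 1477 in nps1-13, against 4007 and 3774 in WT. The strains did not overlap, and YPL088W was lower by limma, with a log2 fold change of -1.34 ± 0.13 as deposited (adjusted p = 3.8e-25), -0.86 on the centred scale and -0.87 after quantile normalization. Its change was thus in the direction of AAD3 and opposite to AAD4. AAD15 and AAD16 were not measured under these names.

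The 7 other aldo-keto reductases of the list, whose signals were between 4678 and 16331, ranged from -0.34 to 0.67 in log2 fold change as deposited. On the deposited scale 2 were higher and 3 lower (beside 9.41% higher and 64.3% lower over all genes), with a median of -0.10. On the centred scale 6 were higher and none lower (beside 42.7% and 34.6%), with a median of 0.38. After quantile normalization 3 were higher and none lower, beside 36.4% and 37.7%. YPR127W, a pyridoxal reductase, had 8036 and 7367 in nps1-13 and 5023 and 4678 in WT, at 0.67 as deposited and 1.14 centred. YJR096W, a xylose and arabinose reductase, stood at 0.42 and 0.89. The directions of GCY1, a glycerol dehydrogenase, and YPR1, a carbonyl reductase, turned between the scales, at -0.26 and -0.23 as deposited (lower) and 0.22 and 0.24 on the centred scale (higher). Without nps1-13 replicate 1 the deposited count of lower genes was 1 and the call of GCY1 was lost (-0.23), and without nps1-13 replicate 2 that of YPR1 was lost (-0.20). With eBayes without the trend both calls were lost (limma adjusted p = 0.11 and 0.15) and the count of lower genes was 1.

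Of 12 NADPH-dependent aldehyde and ketone reductases outside the aldo-keto family, 1 was higher and 8 lower as deposited (beside 9.41% higher and 64.3% lower over all genes), and 5 were higher and 6 lower on the centred scale (beside 42.7% and 34.6%). The aldehyde reductase gene ARI1 stood at 1.01 as deposited and 1.48 centred. The related reductase gene YGL039W averaged 1052 ± 2.40 in nps1-13 and 3248 ± 261 in WT (SD, n = 2 each), at -1.62 and -1.15. YDR541C, another gene of this group, stood at -1.31 and -0.84, and OYE3, an NADPH oxidoreductase (old yellow enzyme), at -1.23 and -0.75. Without WT replicate 1, 2 genes of the group were higher as deposited.

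The Ehrlich pathway breaks amino acids down to fusel alcohols by way of aldehydes, aromatic ones included, and its 21 genes gave 2 higher and 11 lower as deposited (beside 9.41% higher and 64.3% lower over all genes), and 14 higher and 4 lower on the centred scale (beside 42.7% and 34.6%). Their median was -0.18 as deposited and 0.29 centred. After quantile normalization 10 were higher and 5 lower (beside 36.4% and 37.7%), with a median of 0.07. GAP1, the general amino acid permease, averaged 5136 ± 415 in nps1-13 and 2351 ± 109 in WT (1.13 as deposited, 1.60 centred). Lower on both scales were ATF2, an alcohol acetyltransferase (-1.50 and -1.03), PDC5, a pyruvate decarboxylase (-1.43 and -0.95), and BAT1, the mitochondrial branched-chain aminotransferase (-1.20 and -0.72). The deposited count of higher genes was 1 without nps1-13 replicate 1 or without nps1-13 replicate 2, and that of lower genes was 6 without nps1-13 replicate 2. With eBayes without the trend 1 gene was higher and 7 lower, beside 442 and 3077 of all 5343 genes.

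Of 24 listed Yap1 targets of thiol and oxidative stress, 22 were measured. On the deposited scale 1 was higher and 13 lower (beside 9.41% higher and 64.3% lower over all genes), and the count of lower genes was 8 with eBayes without the trend. On the centred scale 14 were higher and 5 lower (beside 42.7% and 34.6%), and after quantile normalization 8 were higher and 7 lower (beside 36.4% and 37.7%). FLR1, a drug exporter, averaged 835 ± 81.4 in nps1-13 and 2290 ± 119 in WT (SD, n = 2 each), at -1.46 as deposited and -0.98 centred. GSH2, glutathione synthetase, stood at -1.02 and -0.54, and YLR108C at -1.05 and -0.57. The list's count of lower genes was 8 without WT replicate 1, 8 without nps1-13 replicate 1 and 7 without nps1-13 replicate 2, and that of higher genes was 2 without WT replicate 1. Among 18 regulators of oxidant and drug stress genes, 2 were higher and 8 lower as deposited (beside 9.41% higher and 64.3% lower over all genes), and 11 were higher and 5 lower on the centred scale (beside 42.7% and 34.6%). The stress factor MSN4 stood at -1.27 and -0.79, the nuclear exporter CRM1, which carries Yap1 out of the nucleus, at -1.02 and -0.54, and YBP1, a Yap1-binding protein, at -0.95 and -0.47. Without nps1-13 replicate 1 fewer regulators were higher on the deposited scale, as was so over all genes.

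Of 18 genes for telomere silencing and subtelomeric histone modification, 2 were higher and 12 lower as deposited (beside 9.41% higher and 64.3% lower over all genes), and 6 were higher and 8 lower on the centred scale (beside 42.7% and 34.6%). RIF1, a telomere-binding protein, averaged 462 ± 9.62 in nps1-13 and 1265 ± 45.2 in WT (-1.45 as deposited, -0.98 centred). CYC8, a general corepressor subunit, was lower at -0.94 and -0.47, whereas YKU70 and YKU80, the subunits of the Ku heterodimer at telomeres, were the 2 higher genes as deposited, at 0.52 and 0.64 (0.9998 and 1.12 centred). The silencing deacetylase gene SIR2 did not pass as deposited (0.055) and was higher on the centred scale (0.53).

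Other families with copies near chromosome ends were measured only in part. Several of the measured genes lie away from the ends by their systematic names. Among these are TIR4 (YOR009W), TIR2 (YOR010C), SNZ1 (YMR096W) and SNO1 (YMR095C), so their values are not those of end copies. All 5 measured COS genes of 11 listed were lower on the deposited, centred and quantile-normalized scales, where 64.3%, 34.6% and 37.7% of all genes were lower. COS10, a ubiquitin-sorting membrane protein of the vacuolar pathway, averaged 15.8 ± 4.74 in nps1-13 and 183 ± 28.9 in WT (SD, n = 2 each), at -3.55 as deposited and -3.08 centred, with nps1-13 signals of 12.5 and 19.2. With 32 added to the signal COS10 stood at -2.16. COS12, also dim in nps1-13, stood at -2.12 and -1.64, COS9 at -1.38 and -0.91, COS8 at -0.95 and -0.48, and COS6 at -0.61 and -0.14. Of 29 listed PAU, DAN and TIR genes, 8 were measured, 1 higher and 4 lower as deposited (beside 9.41% higher and 64.3% lower over all genes) and 4 higher and 1 lower on the centred scale (beside 42.7% and 34.6%). After quantile normalization 2 of the 8 were higher and 0 lower (beside 36.4% and 37.7%). The cell-wall mannoprotein gene TIR4 was the higher one as deposited, at 1.29, and stood at 1.76 on the centred scale. Without nps1-13 replicate 2, 2 of these genes were lower as deposited, and with eBayes without the trend 2 were higher. Of 6 listed FLO genes 4 were measured, with 0 higher and 1 lower by limma as deposited (beside 9.41% higher and 64.3% lower over all genes). On the centred scale 3 were higher and 0 lower (beside 42.7% and 34.6%). The lower one was FLO8, which encodes a regulator and not a flocculin, at -0.59 as deposited and -0.12 centred, where it did not pass. The measured flocculin genes FLO1, FLO10 and FLO11 did not pass as deposited. Of the 10 thiamine and vitamin B6 genes only SNZ1 and SNO1, which do not lie beside an AAD gene, were measured, and SNO1 was lower at -1.09 and -0.61. SNZ1 did not pass as deposited (-0.037) and turned direction on the centred scale (0.44) and after quantile normalization (0.16), where it was higher.

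**Figure D4:**
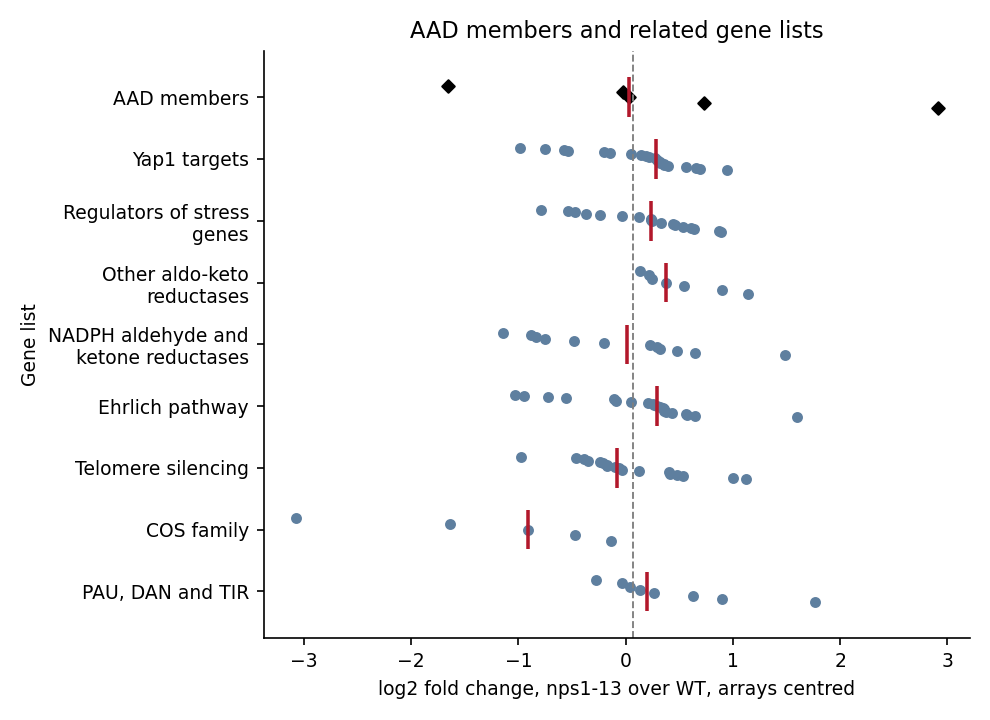
Log2 fold change of nps1-13 over WT on the centred scale (horizontal axis) for the AAD members (diamonds) and the measured genes of 8 lists (points), with a red bar at each list's median; the dashed line is the median of all genes, 0.07. The AAD members extend from -1.65 to 2.91 around a median of 0.028, and the COS genes lie below 0.

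For each member, the genes with the most similar pattern over the 4 arrays were found by the Euclidean distance between log2 signals after each gene's own mean was subtracted. AAD4 was closest to YMR315W-A (distance 0.081; 273 and 224 in nps1-13, 49.3 and 41.1 in WT) and RTA1, a putative lipid-translocating exporter gene (0.147; 336 and 305 in nps1-13, 65.4 and 60.1 in WT). AAD3 had no gene as close, and its nearest were SET4, a SET-domain protein gene (0.262; 59.9 and 45.4 in nps1-13, 219 and 202 in WT), and GIN4, a septin-ring kinase (0.313; 638 and 454 in nps1-13, 2607 and 2085 in WT). AAD10 was closest to FIT1, a cell-wall mannoprotein of iron uptake (0.038), and SMK1, a sporulation kinase (0.057), with 17 genes within 0.1. AAD6 was closest to SPS1, another sporulation kinase (0.022), and EXO84, an exocyst subunit (0.035), with 92 genes within 0.1, and AAD14 to LAS17, an actin-nucleation factor (0.011), and DST1, the elongation factor TFIIS (0.019), with 393. Within the same distance AAD4 had 1 gene and AAD3 had 0, so that many more genes were close to AAD6 and AAD14 than to AAD3 and AAD4. No AAD member was among the 2 nearest genes of another.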

How the data were processed

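The deposited intensity of a probe set is a linear signal. Per the methods, the authors obtained it with GCOS, which the submitters' processing notes also name, at its default settings with global scaling. Per the methods, the trimmed mean of each array was set to 1 target. The plain mean over the deposited probe sets was 3371 to 4484, higher on both WT arrays. Probe-level values were not analysed here. The platform annotation gave 5345 of the 5558 probe sets 1 symbol, 0 several, and left 213 unnamed here, and a RefSeq R64 table gave names and gene order. For the 2 genes with several probe sets the brightest was used. As AAD genes are close paralogues, cross-hybridization between them was not tested.

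All 5343 genes were fitted on log2 signals with limma 3.58.1 (lmFit, eBayes with trend) in R 4.3.3 and Benjamini-Hochberg adjustment, at a threshold of 0.05. In the deposited fit, with 2 residual degrees of freedom, limma estimated infinite prior degrees of freedom. The p-values of that fit therefore rest on a spread set by signal level. This estimate is given for the deposited fit alone and does not extend to the p-values on the other scales. Alternatives were centring, quantile normalization, adding 32, a mean signal of at least 100, eBayes without trend, the replicate number as a block, averaged probe sets, and omission of each array. The members and the 11 gene lists were chosen with earlier results of these data known. Named are the members, other AAD genes, measured neighbours within 5 genes, and the 2 nearest patterns per member. Also named are the 2 to 4 most changed genes of a list past the threshold on both the deposited and centred scales. GCY1, YPR1, ARI1, YKU70, YKU80, SIR2, COS6 and SNZ1 were added after their values were seen. FLO1, FLO8, FLO10 and FLO11 are likewise named outside this rule, as are the strain and cell-type genes STH1, MET17, LEU2, MF(ALPHA)1 and HMRA1.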

Additional observations from a re-analysis of the deposited data

How the results depend on the processing

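On the centred scale, the log2 fold changes were -1.65 for AAD3, 2.91 for AAD4, -0.025 for AAD6, 0.73 for AAD10 and 0.028 for AAD14, where AAD14 turned direction. After quantile normalization they were -1.71, 2.92, 0.16, 0.75 and 0.20 for the same genes, and AAD6 and AAD14 turned direction. Adding 32 to the signal gave -1.48 for AAD3. Leaving out 1 array in turn gave -2.46 to -1.80 for AAD3, 2.28 to 2.59 for AAD4, -0.63 to -0.37 for AAD6, 0.13 to 0.38 for AAD10 and -0.52 to -0.37 for AAD14, with each direction kept.

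Among the other genes named, GCY1 (0.22), YPR1 (0.24), DAN4 (0.31), PEX6 (0.42), RPD3 (0.020), SNZ1 (0.44), YCR102C (0.22) and ZNF1 (0.11) turned direction on the centred scale, and ADY3 (0.018), DAN4 (0.34), PEX6 (0.41), SNZ1 (0.16), YCR102C (0.41) and ZNF1 (0.23) after quantile normalization. Over all genes, 503 were higher and 3435 lower as deposited, 2283 and 1850 on the centred scale, and 1946 and 2016 after quantile normalization. With eBayes without the trend the deposited counts over all genes were 442 higher and 3077 lower. Of neighbours, 8 were lower on the centred scale and 10 higher after quantile normalization. Of genes among the 15 nearest an end, 129 were higher and 101 lower on the centred scale, and 114 were higher and 114 lower after quantile normalization. Taking 10 genes per end gave 23 higher and 100 lower of 169 measured genes as deposited (13.6% and 59.2%). Taking 25 gave 66 and 362 of 577 (11.4% and 62.7%), beside 9.41% and 64.3% of all genes. Leaving out 1 array gave 289 to 569 higher and 2607 to 3629 lower genes among all genes, 3 to 6 higher and 11 to 14 lower neighbours, and 21 to 42 higher and 141 to 178 lower genes near ends. The lowest count of higher genes in each of these came without nps1-13 replicate 1. Where an array was left out, its strain's lone array was assumed to vary like the others. The counts of the gene lists in these fits are to be read beside the ranges over all genes. The causes were not tested, beyond the scale shift that centring removes by construction.

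The replicate numbers share no stated culture or day, and deviations of same-numbered arrays correlated at -0.12 across genes. With the replicate block 633 genes were higher and 3709 lower; the 5 AAD fold changes are the same by construction. With the numbers crossed between the strains, a fit added after seeing the data, 377 were higher and 2996 lower. With 2 arrays per strain and no detection calls used here, changes of probe sets under a signal of 100, AAD3 in nps1-13 included, are the least precise.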
